A study of Mus musculus with 2 samples.

Results

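Replication-dependent histone genes encode the core histones H2A, H2B, H3 and H4 and the linker histone H1 that package newly copied DNA. They are transcribed mainly while a cell copies its genome, and their messages typically end at a short conserved hairpin, the stem-loop, in place of a poly(A) tail. The stem-loop is bound by Slbp, and the messages are degraded as DNA synthesis ends, while replacement histones such as H3f3a are made from polyadenylated messages throughout the cell cycle. Some replication-dependent genes can also give polyadenylated messages in cells that have stopped dividing.

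The genes were chosen by symbol alone, as every gene named H1f1 to H1f5, H2ac, H2bc, H3c or H4c followed by a number. The rule gave 63 of the 33207 genes in the count tables, namely 5 for H1, 17 for H2A, 17 for H2B, 12 for H3 and 12 for H4. Of these, 53 lay on chromosome 13 between 21899933 and 24118834 and 10 on chromosome 3 between 96127181 and 96177448 (GRCm39).

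The study followed boundary cap cells, a neural crest-derived population at the nerve roots, and their progeny. Tomato+ cells were sorted from dissected meninges and dorsal root ganglia of pooled mouse embryos of genotype Egr2Cre/+, Rosa26RTom (Egr2,R26mT in short) at embryonic stages E11.5 and E12.5, and polyadenylated RNA was counted per cell with the droplet-based 3′ assay of 10x Genomics, 1 library per stage. Both groups carried the same alleles and no other treatment. Cre is driven by the Egr2 locus and the recombination is permanent, so Tomato marks cells that once expressed Egr2 together with their descendants. Another library, from Prss56-Cre embryos, was not analysed here.

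After filtering, 833 cells with a median of 11601 unique molecular identifiers (UMIs) remained at E11.5 and 3496 cells with a median of 6140 at E12.5. The libraries shared 9 cell barcodes. Clusters built without the histone, replication and mitosis genes gave, at E11.5, 548 glia-like, 224 neuron-like and 61 pericyte-like cells. At E12.5 they gave 1728 glia-like, 1509 neuron-like, 41 pericyte-like, 182 mesenchymal-like and 36 myeloid-like cells, although the label names boundary cap cells only. Each stage is 1 library, so no test between cells or stages is given. Levels are summed UMIs per 1000000 UMIs (CPM) of a class with an exact 95% Poisson interval, shares carry an exact binomial interval and ratios an exact conditional binomial interval. All of them cover counting error only, and differences between embryos, sorts or libraries are not in them.

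A stem-loop was found 22 to 59 bases after the stop codon (median 31) in 61 of the 63 genes, and in all but H2bc21 and H2ac22. The same 16 bases were found in 39 genes of the H1, H2A, H2B and H3 families, whereas H4 genes had their own forms. Shown are 4 genes with a long run of A by the loop, and H2bc4 and H4c9, the genes with the most UMIs after H2ac24. The windows below are the 30 bases around the loop in these 6 genes. They are given 5′ to 3′ on the coding strand of GRCm39, with the stem-loop in capitals.
H2ac24: aaaaaaaaaaaaGGCTCTTTTCAGAGCCat
H2ac23: aaaaaaaaaaaaGGCTCTTTTCAGAGCCat
H2ac8: aaaaaaaacaaaGGCTCTTTTCAGAGCCat
H3c3: tatttaaaaaaaGGCTCTTTTAAGAGCCac
H2bc4: gcgaattccaaaGGCTCTTTTCAGAGCCac
H4c9: atgctacttaaaGGCCCTTTTTAGGGCCac
The windows lie at chr13:22017197-22017226 (minus strand) for H2ac24, chr13:21995056-21995085 (plus) for H2ac23, chr13:23754840-23754869 (minus) for H2ac8, chr13:23929028-23929057 (minus) for H3c3, chr13:23868618-23868647 (plus) for H2bc4 and chr13:22225134-22225163 (minus) for H4c9. The first 4 of these genes were the only members with a run of 7 or more A directly before the loop or within 10 bases of it. Of the histone UMIs, these 4 held 84.0% in the E11.5 library and 20.3% in the E12.5 library. H2ac24 alone held 81.4% and 13.1%, while H2ac23, with the same run, had 27 UMIs in each library. The assay primes on A stretches, and whether these runs were primed was not tested.

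The annotation placed the end of the transcript within 300 bases of the stop codon in 42 genes (short end) and further away in 21 (long end). H2ac24 ended 57 bases after the stop and H2bc4 had an annotated end 8296 bases after it. The genes were often near-identical. Of the 63, 58 shared at least one 90-base stretch of coding sequence with another gene and 12 shared all such stretches, leaving only H1f1, H1f5, H2ac1, H2bc21 and H4c14 with none. H2ac23 and H2ac24 had the same coding sequence and the same 1314 bases from the start codon onwards. Reads from such copies may be split, lost or given to one of them, so the values of a single copy are uncertain. In addition, 16 genes overlapped another gene on the same strand and 35 on the opposite strand, among them H2bc6 with H1f4 and H2bc4 with H2ac6.

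Of 14 head-to-head pairs, 12 joined an H2A with an H2B gene. H2ac24 and H2bc24 faced away from each other across 233 bases at chr13:22017678-22017910, shown because the 2 genes that flank it differed so widely in UMIs. The plus strand of GRCm39 is given, with the CCAAT box (CCAAT, or ATTGG on the other strand) in capitals.
H2ac24_H2bc24: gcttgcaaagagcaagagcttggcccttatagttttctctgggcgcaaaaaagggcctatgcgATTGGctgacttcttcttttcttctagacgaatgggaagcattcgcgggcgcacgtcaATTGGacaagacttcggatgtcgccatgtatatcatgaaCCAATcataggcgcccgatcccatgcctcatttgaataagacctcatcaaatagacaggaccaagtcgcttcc
The stretch held CCAAT 3 times and neither TATAAA nor the octamer ATTTGCAT. In the E11.5 library H2bc24 had 13 UMIs and H2ac24 had 9158, and in the E12.5 library 4 and 578. Promoters of 57 genes could be matched in RefSeq (GRCm38.p6, 250 bases before to 50 after the start, both strands searched). CCAAT was found in 86% of them against 37.9% of all 27025 promoters, and in all matched H1, H2A, H2B and H3 promoters but only 27.3% of H4 promoters. TATAAA was found in 59.6% against 14.2%, and ATTTGCAT, restricted to H2A and H2B genes, in 21.1% against 1.75%. These are matches of letters, not sites of binding.

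One gene, H2ac24, dominated the histone UMIs at E11.5. The E11.5 library held 11247 UMIs of the 63 genes (1179 CPM, 1157 to 1201) and the E12.5 library 4406 (196 CPM, 190 to 202). H2ac24, an H2A gene, accounted for 81.4% of them at E11.5, with 9158 UMIs and 960 CPM (940 to 980), and for 13.1% at E12.5, with 578 UMIs and 25.7 CPM (23.7 to 27.9). It ranked 149th of 20165 detected genes at E11.5 and 5722nd of 24326 at E12.5. Without it, the other 62 genes summed to 219 CPM (210 to 229) and 170 CPM (165 to 176).

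Of the 63 genes, 57 were detected at E11.5 and 59 at E12.5. H2bc1 and H3c14 had no UMI in either library, read here as a floor of 3 UMIs in each. After H2ac24, H4c9 (an H4 gene, 30.0 CPM, 26.6 to 33.7) and H2bc4 (an H2B gene, 26.1 CPM, 23 to 29.5) led at E11.5 with overlapping intervals. They were followed by the H2A genes H2ac8 (19.7 CPM) and H2ac11 (17.7 CPM), whose intervals also overlapped, and the linker histone genes H1f4 (12.4 CPM) and H1f5 (11.1 CPM). At E12.5 the order changed, and H2bc4 was highest (48.0 CPM, 45.1 to 50.9), above H2ac24 and H4c9 (21.2 CPM, 19.3 to 23.1). A UMI marks 1 captured molecule whatever its length, so these levels compare captured, not total, messages.

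**Figure D1:**
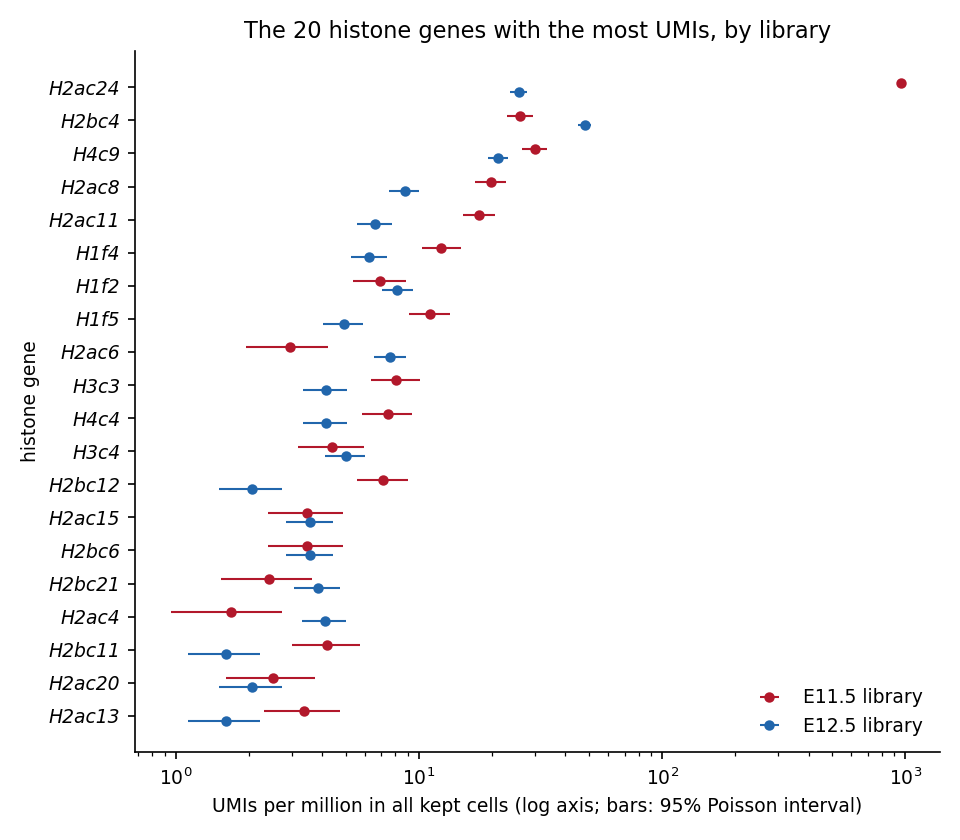
Levels of the 20 histone genes with the most UMIs in the E11.5 (red) and E12.5 (blue) libraries, as summed CPM in all kept cells on a log axis, with exact 95% Poisson intervals. H2ac24 stands at 960 at E11.5 and 25.7 at E12.5, while H2bc4, H2ac6 and H2ac4 lie further right at E12.5.

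The question of whether these genes differed between the stages was read from each library's levels. Of 40 genes with 20 or more UMIs over both libraries, 19 were at least 2-fold lower at E12.5 (2.53% of all 15783 genes compared were) and 3 were at least 2-fold higher (13.5% of all genes were). A gene passed the minimum of 20 UMIs more easily where it was high in the larger library, and the other 23 genes were not read. The median of the 40 was -0.98 on the log2 scale of E12.5 over E11.5, against 0.14 for all genes. H2ac24 was 37.3-fold higher at E11.5 (34.3 to 40.6). The next largest ratios belonged to H3c10 (8.4-fold, 3.53 to 23, from 25 and 7 UMIs) and H2ac22 (7.06-fold, 2.89 to 19.7, from 21 and 7 UMIs). H2ac18, with 21 and 0 UMIs, was at least 16.5-fold higher with the 0 set to 3 UMIs, while its interval began at 12.3. Where a class had 0 UMIs, at least has this meaning here and below. Counting error of the other class is not in it.

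Many of the abundant genes, though not most, were moderately higher at E11.5. H2bc12 went from 7.13 to 2.05 CPM (3.48-fold), H2ac11 from 17.7 to 6.59 CPM (2.69-fold), H2bc11 from 4.19 to 1.60 CPM (2.62-fold), H1f5 from 11.1 to 4.90 CPM (2.27-fold), H2ac8 from 19.7 to 8.73 CPM (2.26-fold) and H2ac13 from 3.35 to 1.60 CPM (2.09-fold). Of the others, 4 stayed under 2-fold, with H1f4 at 1.98-fold, H3c3 at 1.95-fold, H4c4 at 1.80-fold and H4c9 at 1.42-fold. H2ac15, H2bc6, H3c4, H1f2, H2bc21 and H2ac20 had intervals of the ratio that included 1, with values between 0.629 and 1.23.

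A few genes went the other way. The ratio of E11.5 over E12.5 was 0.409 for H2ac4 (0.225 to 0.701), 0.385 for H2ac6 (0.249 to 0.577) and 0.544 for H2bc4 (0.472 to 0.625). H2ac1, an H2A gene best known from the testis, had no UMI at E11.5 and 44 at E12.5, at least 6.23-fold more, with an interval that began at 4.86. Genes with a long annotated end summed to 107 CPM at E11.5 and 115 CPM at E12.5, and the 15 compared had a median E12.5 over E11.5 ratio of 1.13. Their sums include H2bc4, at 26.1 and 48.0 CPM. Those with a short end other than H2ac24 summed to 112 and 55.0 CPM, and the 25 compared, H2ac24 included, had a median of 0.425.

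The UMIs of some near-identical copies were split differently in the 2 libraries. For this, 3 ribosomal protein genes were picked after their values were seen because they were among the 10 genes with the largest E11.5 over E12.5 ratios. Each has a second, near-identical gene in the table. The second gene's share of the UMIs of both was 2.68% at E11.5 and 80.9% at E12.5 for Rps27 with Rps27rt, 2.24% and 83.4% for Rpl9 with Rpl9-ps6, and 4.13% and 79.2% for Rpl10 with Rpl10-ps3. The sum of both genes was also lower at E12.5, for Rps27 with 5331 CPM at E11.5 and 1036 at E12.5. Among histone genes, H2ac18 and H2ac19 gave 21 and 0 UMIs at E11.5 and 0 and 6 at E12.5. H2ac23, the copy of H2ac24, had 27 UMIs in each library, and their sum was 963 CPM in the earlier and 26.9 CPM in the later. All H2A genes but H2ac24 summed to 62.5 CPM at E11.5 and 39.7 at E12.5. What part read assignment had in the H2ac24 difference was not tested. By size of this ratio, H2ac24 was 2nd of 11929 genes with 100 or more UMIs over both libraries, after Xist, for which 2639 and 0 UMIs were counted.

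The difference was also seen within a class. In glia-like cells with Pcna or Top2a, H2ac24 stood at 1374 CPM at E11.5 and 55.5 CPM at E12.5, and the ratio of E12.5 over E11.5 was 0.040 (0.037 to 0.044). Of 32 histone genes compared in these cells, 10 were at least 2-fold lower at E12.5 (2.05% of all genes) and 3 at least 2-fold higher (8.76% of all genes), namely H2ac1, with 0 and 33 UMIs (at least 8.01-fold), H2ac4 (4.44-fold, 2.33 to 9.31) and H2ac6 (3.64-fold, 2.24 to 6.22). H3c10 (0.095) and H2ac22 (0.121) were the lowest after H2ac24. In neuron-like cells without Pcna or Top2a only 5 genes could be read. Ratios above 2 were those of H2bc4 (2.68, 1.61 to 4.76) and H2bc21 (4.90, 0.807 to 201), and the interval of H2bc21 included 1. Of all genes, 8.86% were at least 2-fold higher at E12.5 and 2.60% lower. H1f2 and H4c9 were at 1.03 and 0.968. H2ac24 was the only gene at least 2-fold lower at E12.5, with a ratio of 0.028 that was near the 0.040 of the glia-like cells above. It had 39 UMIs in 110 such cells of E11.5 (32.4 CPM) and 6 in 1064 of E12.5 (0.905 CPM). No such cell held more than 2, so these counts are not read as expression, and their source was not tested.

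Genes that work with histone messages and DNA replication moved less between the libraries. None of the 17 genes for histone mRNA processing and histone supply changed 2-fold, the ratios of E12.5 over E11.5 running from Zfp473 (0.510), Chaf1a (0.718) and Chaf1b (0.734) to Sympk (0.956), Cpsf3 (1.03) and Lsm10 (1.07). Slbp, the stem-loop binding protein, went from 137 to 112 CPM. Of 24 DNA replication genes 1 was lower by 2-fold, with Rrm2 (0.469), Ccne2 (0.526) and Fen1 (0.580) lowest and Prim1 (0.798), Pole (0.812) and Pold1 (0.852) highest. The mitosis genes ran from 0.543 for Aurka to 0.846 for Cenpf. All 24 replication and all 16 mitosis genes were thus lower at E12.5, with median log2 ratios of -0.52 and -0.45. In glia-like cells with Pcna or Top2a these medians were -0.11 and 0.11, and that of the 32 histone genes was -0.56. The share of cells with Pcna or Top2a also differed between the libraries, and its part was not tested. Of 13 genes compared from the replacement histone list 1 was higher by 2-fold, H4f16 (2.5), followed by H2aw (1.78) and H2aj (1.51). The lowest were H2az1 (0.730), Macroh2a1 (0.733) and Cenpa (0.766). The list was a choice of symbols, and whether each gene on it, H4f16 and H2aw among them, is a replacement histone was not tested.

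Cells were next divided by the presence of Pcna, the sliding clamp of DNA replication, or Top2a, the topoisomerase of dividing cells. At E11.5, 613 cells had at least 1 UMI of either gene and 220 had none, with medians of 12619 and 8668.5 UMIs per cell, and at E12.5 the numbers were 1667 and 1829, with 7065 and 5377. Deeper cells are more likely to show a marker, so values from thinned cells are also given below. In the cells with a marker the 63 genes summed to 1434 CPM, against 151 in those without, in the E11.5 library, and to 257 against 122 CPM in the E12.5 library. Of 26 histone genes compared at E11.5, 20 were at least 2-fold higher with a marker (9.07% of all 12324 genes), and of 27 at E12.5, 22 were (6.01% of 15102 genes). None was 2-fold lower, where 8.32% and 5.5% of all genes were. The median log2 ratio was 1.84 and 1.78, against 0.01 and 0.02 for all genes. With genes that had no UMI in the cells without a marker placed at their bound, the count at E11.5 was 19 and the median 1.36, and those of E12.5 did not change.

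H2ac24 and the linker histone gene H1f5 showed some of the largest differences. At E11.5 H2ac24 was at 1188 CPM with a marker and 41.6 CPM without (28.5-fold, 22.9 to 36.1), and at E12.5 at 45.2 and 2.26 CPM (19.99-fold, 13.2 to 31.8). H1f5 had 105 UMIs with a marker and 1 without at E11.5 (26.1, 4.58 to 1040) and 105 and 5 at E12.5 (17.4, 7.22 to 54.7). Among the H2A genes, H2ac10 (29 and 0 UMIs, at least 2.40-fold), H2ac23 (27 and 0, at least 2.24-fold) and H2ac20 (24 and 0, at least 1.99-fold) were found only in cells with a marker at E11.5. At E12.5, H2ac23 (27 and 0 UMIs) was at least 7.46-fold higher and H2ac1 (42 and 2 UMIs) had a ratio of 17.4 (4.53 to 148). H1f4 was 9.52-fold and 5.28-fold higher, H4c4 5.63-fold and 3.23-fold, H2ac11 3.57-fold and 3.55-fold, and H2ac8 2.67-fold and 3.95-fold.

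H2bc4 was the exception in both libraries. It was lower in cells with a marker, at 24.2 against 33.7 CPM at E11.5 (0.718, 0.538 to 0.970) and 38.6 against 59.3 CPM at E12.5 (0.651, 0.576 to 0.736). Little difference was seen in H2ac18 (1.06), H1f2 and H3c4 (both 1.24) at E11.5 and in H4c8 (1.01) and H2bc21 (1.15) at E12.5, and each of these intervals included 1. Summed by family, the H2B genes, H2bc4 included, were at 55.2 and 43.2 CPM at E11.5 and at 58.9 and 69.6 CPM at E12.5. H2bc4 made up much of these sums. Taken singly, 5 of 6 H2B genes compared at E11.5 (9.07% of all genes) and 4 of 6 at E12.5 (6.01%) were at least 2-fold higher with a marker. The H1 genes differed 4.98-fold (2.97 to 9.02) and 2.74-fold (2.21 to 3.41). Short-end genes other than H2ac24 differed 3.16-fold (2.51 to 4.03) and 4.71-fold (4.02 to 5.53), and long-end genes 1.71-fold (1.42 to 2.08) and 1.24-fold (1.15 to 1.35). The long-end sums include H2bc4, which was lower with a marker. By gene, the median ratio at E11.5 was 2.58 for short-end genes, H2ac24 included, and 3.04 for long-end genes. At E12.5 these medians were 3.95 and 2.26. Genes with no UMI in the cells without a marker stood at their bound.

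**Figure D2:**
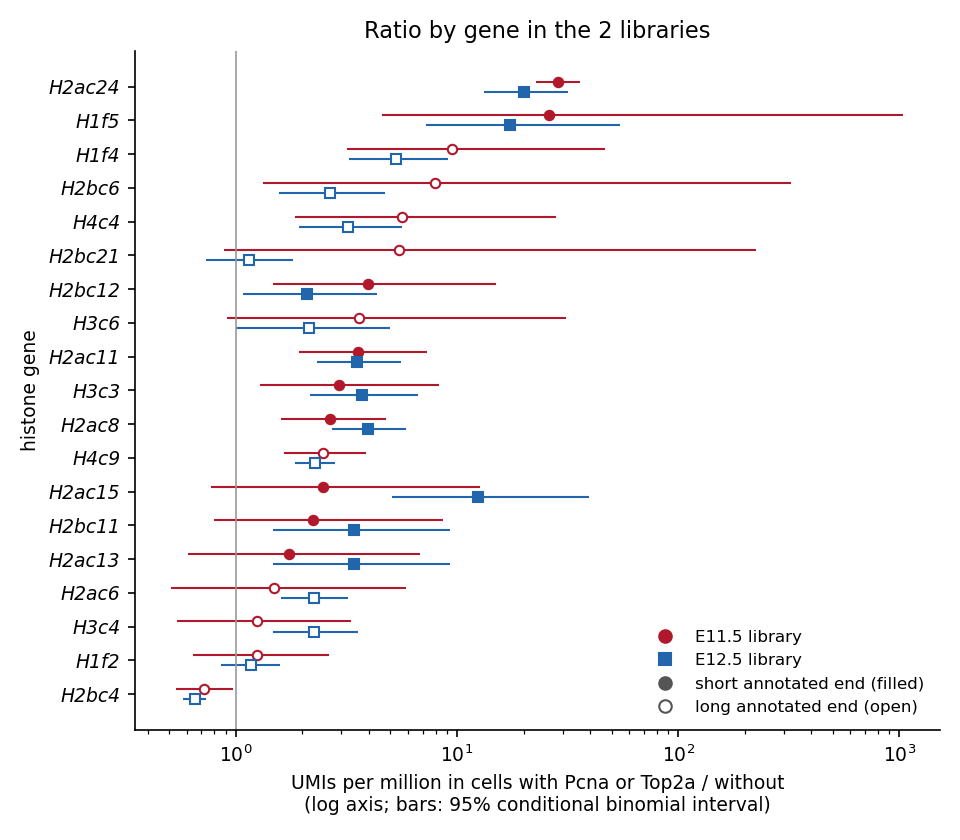
Ratio of the level in cells with Pcna or Top2a over the level in cells without, per histone gene on a log axis, at E11.5 (red circles) and E12.5 (blue squares), with exact 95% conditional binomial intervals and filled symbols for short annotated ends. H2bc4 lies left of 1 in both libraries (0.718 and 0.651), and H2ac24 and H1f5 lie furthest right.

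The difference at E11.5 was smaller in thinned cells. Cells with a marker were picked again after thinning, so some moved to the cells without. The part of depth alone cannot be told apart from this move. With each cell thinned to 2000 UMIs, which left 367 of the 833 cells with a marker and left out no cell, the summed log2 ratio was 1.73 instead of 3.25. It was 2.07 with cells divided by Mcm5 or Mki67 in place of Pcna or Top2a, and 1.18 without H2ac24. At E12.5 thinning left out 165 of the 3496 cells and gave 934 of 3331 with a marker. Of the thinned marked cells, 70.8% (65.9 to 75.4) had a histone UMI at E11.5 and 39% (35.8 to 42.2) at E12.5, against 87.3% and 64.1% without thinning. In neuron-like cells without a marker, taken as the background of free RNA and low expression, the shares were 19% and 12.4% thinned, and 53.6% and 30.9% at their own medians of 11256.5 and 6062.5 UMIs. Thinning took this class from 110 to 179 cells at E11.5 and from 1064 to 1233 at E12.5. The added cells had a marker before thinning.

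Other cycle genes are given for scale. Of the DNA replication genes 22 of 24 were at least 2-fold higher with a marker in each library, including Pcna itself, and all 16 mitosis genes were, including Top2a. Rrm2 (5.67 and 6.94) and Cdc45 (6.11 and 8.18) were among the highest replication genes, Cdc6 (6.06) at E11.5 and Ccne2 (4.55) at E12.5 completing the 3, and Mcm2 (1.77 and 1.77), Mcm7 (1.87 and 1.89) and Rfc4 (2.42) or Mcm4 (2.12) were lowest. Of 16 compared genes of histone mRNA processing and supply, 4 were higher in each library, led by the histone chaperone genes Asf1b (5.54 and 3.61), Chaf1a (3.33 and 3.05) and Chaf1b (3.06 and 2.64). Cpsf3 (1.07 and 1.03) and Lsm10 (0.731 and 1.01), with Sympk (0.910) at E11.5 and Cpsf2 (1.04) at E12.5, were lowest. Genes of the replacement histone list differed less, at 2 of 12 and 3 of 13 genes. H2ax (3.07 and 4.08) and the centromeric Cenpa (2.34 and 2.90) led, before H2az1 (1.94) and H1f10 (2.61), while H3f3a (0.886 and 0.886), Macroh2a2 (0.885 and 0.792) and H2aw (0.493 and 0.679) were lower with a marker.

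Within glia-like cells the difference was seen in fewer genes. At E11.5, 12 of 21 histone genes were at least 2-fold higher with a marker (8.08% of all genes). Of these, 6 had no UMI in the 80 glia-like cells without a marker, and with them at their bound 8 of 21 passed, among the 6 only H1f4 (at least 2.85-fold) and H1f5 (at least 2.51-fold). The others at 0 were H2ac10, H2ac23, H2bc6 and H3c10, each with 22 to 29 UMIs in cells with a marker. H2ac24 was 23.1-fold higher (16.1 to 34.5). No histone gene was 2-fold lower, where 4.59% of all genes were. H3c4 (0.536), H2bc4 (0.661) and H1f2 (0.703) were lowest, with intervals that included 1. The summed log2 ratio of 2.86 fell to 1.22 in thinned cells and to 0.72 without H2ac24.

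At E12.5, 10 of 24 genes were at least 2-fold higher in glia-like cells with a marker (3.37% of all genes) and 1 was lower (2.23% of all genes). H2ac1 and H2ac20 (each with 33 UMIs against 1, ratio 11.3, 1.90 to 460), H2ac15 (61 and 2 UMIs, 10.5, 2.78 to 88.3) and H2ac24 (9.50, 5.78 to 16.8) were highest. The gene that was lower was H2bc4, at 41.1 CPM with a marker and 111 CPM without (0.369, 0.315 to 0.433), followed by H1f2 (0.576, 0.401 to 0.835) and H1f3 (0.686, 0.277 to 1.85). Of the long-end genes 1 of 11 was 2-fold higher, with a median ratio of 1.22, and of the short-end genes 9 of 13, with a median of 2.83. The summed log2 ratio was 0.36 with H2ac24 and 0.11 without it, and the interval of the latter included 0.

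Few histone genes could be compared between neuron-like cells with and without a marker. At E11.5, 3 of 4 genes were at least 2-fold higher (5.16% of all genes), H2ac24 (18.5, 13.4 to 26.1), H2ac11 (4.88, 1.43 to 25.9) and H4c9 (2.08, 0.927 to 5.11), and H2bc4 was at 0.966. At E12.5, 5 of 9 were (3.92% of all genes), with H2ac24 (21.5, 9.36 to 60.6), H3c4 (4.81, 1.76 to 15.1) and H1f4 (4.04, 1.82 to 9.60) highest, and H2bc4 (0.912), H2bc21 (0.926) and H4c9 (1.68) lowest. None was 2-fold lower in either library, where 2.89% and 1.34% of all genes were. Most of these UMIs came from 1 cluster per library, singled out after its values were seen. At E11.5 its 43 cells held 852 of the 885 H2ac24 UMIs of neuron-like cells with a marker, and at E12.5 its 164 cells with a marker held 63 of 67. Without this cluster H2ac24 was at 37.6 CPM with a marker and 32.4 CPM without at E11.5 (1.16, 0.707 to 1.89), and had 4 and 6 UMIs at E12.5 (1.96, 0.407 to 8.26). The other 62 genes were then at 0.965 (0.658 to 1.41) and 0.771 (0.617 to 0.957).

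The cells with a marker could be divided again. Pcna is most abundant when DNA is copied and Top2a later, towards mitosis, so the 2 genes divide the cycle only roughly. The classes pool all cell types, so cell type and cycle phase cannot be told apart in them. In cells with a marker at E12.5, replication genes other than Pcna summed to 1895 to 2292 CPM in the glia-like clusters. In the neuron-like clusters other than the one with most H2ac24 they were at 260 to 633 CPM. The histone genes were highest in cells with UMIs of both, at 1634 CPM for H2ac24 and 285 CPM for the other 62 genes in 336 cells at E11.5, and 91.0 and 294 CPM in 576 cells at E12.5. Cells with both were also the deepest, with medians of 14340 and 7721.5 UMIs. Cells with Top2a only (114 and 444) had more than cells with Pcna only (163 and 647). H2ac24 was at 930 CPM with Top2a only and 119 CPM with Pcna only at E11.5 (ratio of Pcna only over Top2a only 0.128, 0.110 to 0.149), and at 30.5 and 6.49 CPM at E12.5 (0.213, 0.135 to 0.326).

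Of 9 histone genes compared at E11.5, 5 were at least 2-fold lower in cells with Pcna only (4.08% of all genes), and of 16 at E12.5, 11 were (3.28% of all genes). None was 2-fold higher, where 3.87% and 6.61% of all genes were. H2ac24, H1f4 (0.155, 0.038 to 0.472) and H3c3 (0.247, 0.080 to 0.656) were lowest at E11.5 and H2bc4 (1.63, 1.02 to 2.67), H2ac8 (1.10) and H2ac11 (0.699) highest. At E12.5 H2ac15 (0.109, 0.021 to 0.363), H3c3 (0.123, 0.037 to 0.318) and H1f5 (0.141, 0.042 to 0.371) were lowest and H2bc21 (1.61, 0.660 to 4.32), H2bc4 (1.12) and H1f2 (0.981) highest. The summed log2 ratios of -2.16 and -1.07 became -0.58 and -0.44 in thinned cells. The H2B sum, which includes H2bc4, did not follow the others, at 55.3 and 52.1 CPM with Pcna only and Top2a only at E11.5 and 58.4 and 65.9 CPM at E12.5. Slbp was higher with Pcna only at E11.5 (1.59, 1.25 to 2.04) and at 0.972 (0.845 to 1.12) at E12.5. The mitosis genes, Top2a among them, were lower in 15 of 16 and 16 of 16, and 5 and 1 of 23 replication genes other than Pcna, which defines the class, were higher, led by Cdc6 (4.72 and 2.48). The replacement histones H2ax (0.288 and 0.199) and Cenpa (0.408 and 0.183) fell below 0.5 in both libraries. No other of the 12 genes compared from the replacement histone list in the earlier library was 2-fold lower. In the later library 4 of 13 were, H2ax and Cenpa among them.

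**Figure D3:**
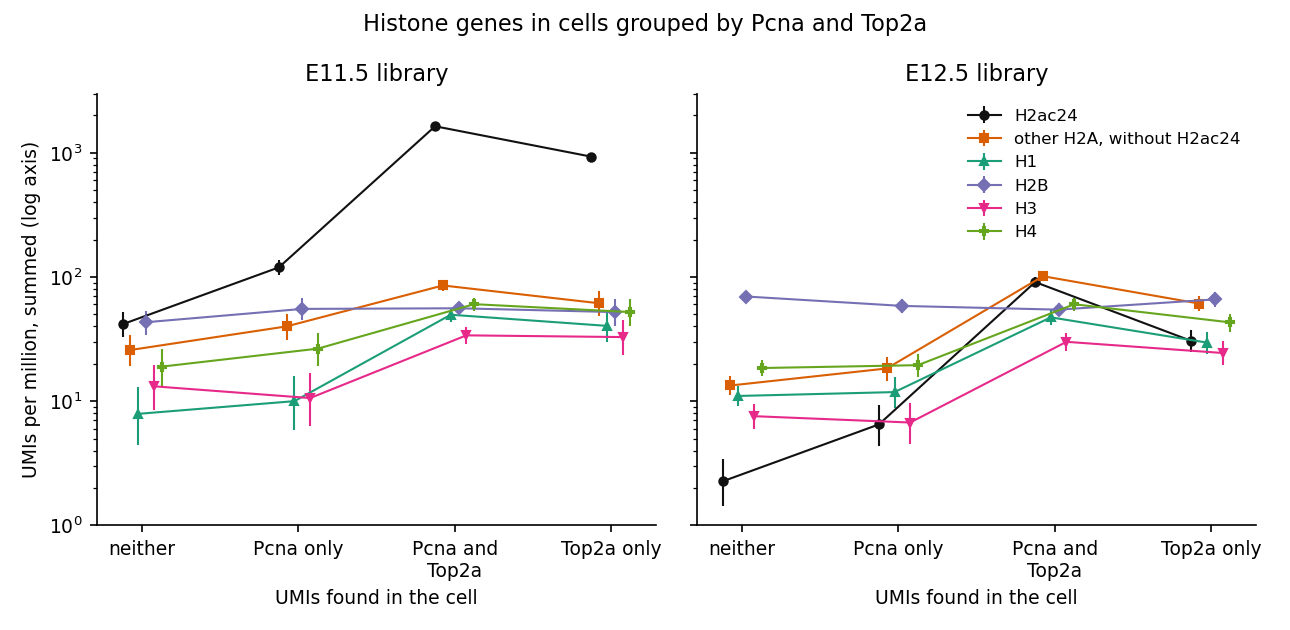
Summed levels of H2ac24 and of each histone family in cells with UMIs of neither gene, of Pcna only, of both or of Top2a only, in CPM on a log axis with exact 95% Poisson intervals, at E11.5 (left) and E12.5 (right). H2ac24 peaks in cells with both genes (1634 and 91.0), while the H2B line, which includes H2bc4, stays nearly level.

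Per cell, H2ac24 was distributed unevenly. Among the 613 cells with a marker at E11.5 the median was 2 UMIs, the upper quartile 27 and the maximum 95, and 227 cells (37.0%) had 10 or more. None of the 220 cells without a marker had 10, and their maximum was 3. At E12.5 the maximum was 7 UMIs in any cell. Neuron-like cells without a marker held 1 or 2 H2ac24 UMIs in 28.2% of cases at E11.5, so such low counts are not read as expression.

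Cells rich in H2ac24 also had more of the other histone genes at E11.5. With cells grouped by H2ac24 per 10000 UMIs, the other 62 genes summed to 134 CPM in 349 cells with none, 137 CPM in 184 cells up to 2, 207 CPM in 81 cells from 2 to 10 and 362 CPM in 219 cells of 10 or more. Slbp went from 93.5 to 193 CPM over the same groups and H2bc4 from 37.4 down to 14.2 CPM. Median depth was 8121, 13073, 11068 and 15215 UMIs in these groups. Top2a went from 75.9 to 469 CPM and the replication genes other than Pcna from 1098 to 2657 CPM. The other 62 genes rose at E12.5 too, at 141 CPM in 3153 cells with none and 324 CPM in 195 cells up to 2. In 147 cells from 2 to 10 they were at 475 CPM, and 1 cell had 10 or more. H2bc4 went from 50.7 to 33.1 and 21.7 CPM, with median depths of 5916, 8089 and 7309 UMIs. The parts of depth, cell cycle and cell type were not tested.

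**Figure D4:**
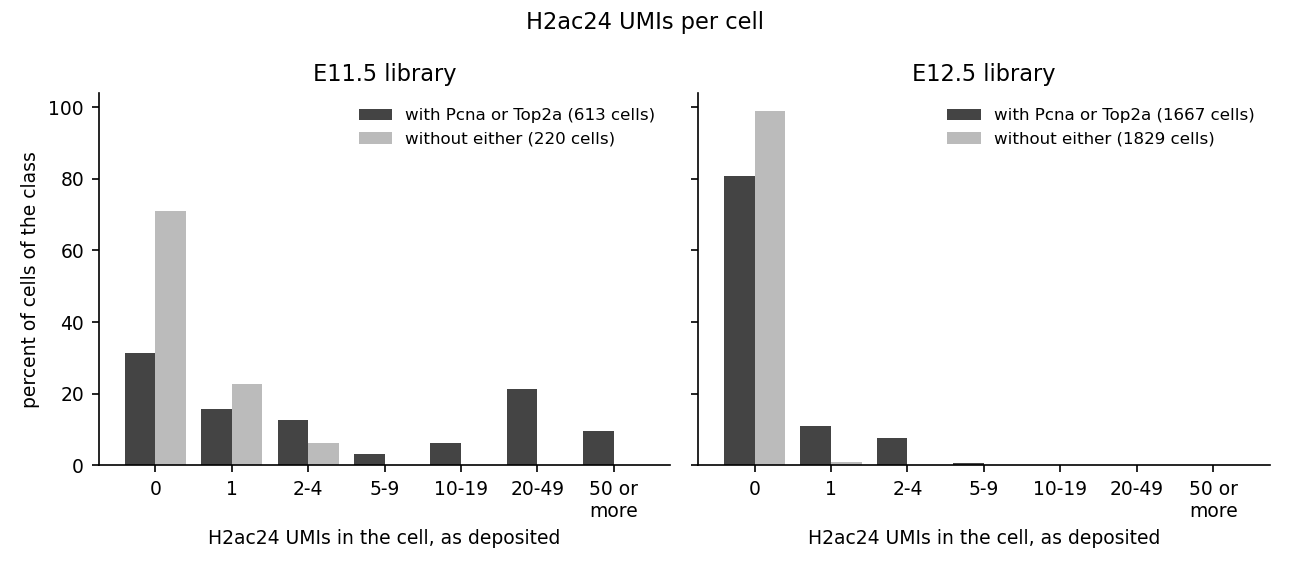
Share of cells, in percent of the class, by the number of H2ac24 UMIs in the cell as deposited, for cells with (dark) and without (light) Pcna or Top2a at E11.5 (left) and E12.5 (right). At E11.5, 227 of 613 cells with a marker hold 10 or more UMIs and none of the 220 cells without, and no cell does at E12.5.

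Glia-like cells held more histone UMIs than neuron-like cells at both stages, at 1541 against 446 CPM at E11.5 and 289 against 91.2 CPM at E12.5. Of 26 genes compared at E11.5, 20 were at least 2-fold higher in glia-like cells (18.8% of all 11986 genes), and of 25 at E12.5, 23 were (22.4% of 14525 genes). None was 2-fold lower, where 11.1% and 12.9% of all genes were. The summed log2 ratio of 1.79 at E11.5 was 1.13 with 15 in place of 30 components in the clustering, and 4.05 without 1 neuron-like cluster of 43 cells that held most of the H2ac24 UMIs of its class. H2ac24 was at 1272 against 345 CPM (3.69, 3.45 to 3.96) and at 42.8 against 7.24 CPM (5.91, 4.61 to 7.67). At E11.5 H3c10 (4.89, 1.21 to 42.8), H2ac15 and H2bc6 (both 4.11, 1.27 to 21.1) were highest and H2ac18 (1.06), H2ac6 (1.28) and H2bc14 (1.36) lowest. At E12.5 H2bc6 (13, 5.30 to 41.2), H1f5 (8.65, 4.5 to 18.6) and H4c4 (8.46, 4.24 to 19.2) were highest, and H2bc21 (1.06, 0.675 to 1.66), H2bc4 (1.71, 1.5 to 1.95) and H3c6 (2.68, 1.09 to 7.52) lowest.

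The classes also differed in the share of cells with a marker, which in the E11.5 library was 468 of 548 in the glia-like and 114 of 224 in the neuron-like class, and in the E12.5 library 1112 of 1728 and 445 of 1509. Among cells with a marker the difference was smaller. There 13 of 24 genes at E11.5 (18.2% of all genes) and 16 of 23 at E12.5 (20.3% of all genes) were at least 2-fold higher in glia-like cells, and none was 2-fold lower (9.33% and 11.3% of all genes). H2ac24 was 2.29-fold (2.14 to 2.46) and 2.86-fold (2.20 to 3.75) higher, and the median ratios were 2.02 and 2.37. These ratios average over unlike neuron-like clusters. Against the cluster that held most H2ac24 UMIs, cells with a marker in the glia-like class were at 0.968 (0.902 to 1.04) and 1.15 (0.881 to 1.52) for H2ac24 and at 1.10 (0.931 to 1.31) and 1.17 (1.04 to 1.34) for the other 62 genes. Against the remaining neuron-like cells with a marker they were at 36.5 (26.0 to 53.1) and 29.7 (11.53 to 110) for H2ac24, the latter from 443 and 4 UMIs, and at 4.86 (3.67 to 6.57) and 5.08 (4.17 to 6.23) for the others. The ratio was above 2 in both libraries for H2bc6 (3.68 and 11.7), H4c4 (3.15 and 7.34), H2ac8 (3.01 and 3.28) and H4c9 (2.47 and 2.91). At E11.5 H3c10 (5.84, 0.949 to 241) was highest and H2ac10 (0.932), H2ac13 (1.17) and H2ac20 (1.21) were lowest. At E12.5 H2ac11 (7.12, 3.16 to 19.9) was among the 3 highest and H2bc21 (1.20), H2bc11 (1.23) and H2bc4 (1.26) were lowest. Of the listed genes, Cdt1 (13) and Ccne2 (9.20) at E11.5 and Gins2 (8.62) and Mcm3 (8.29) at E12.5 led the replication genes of all glia-like over all neuron-like cells. On the replacement histone list, H2aw (0.284 and 0.409) was the one gene 2-fold lower.

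**Figure D5:**
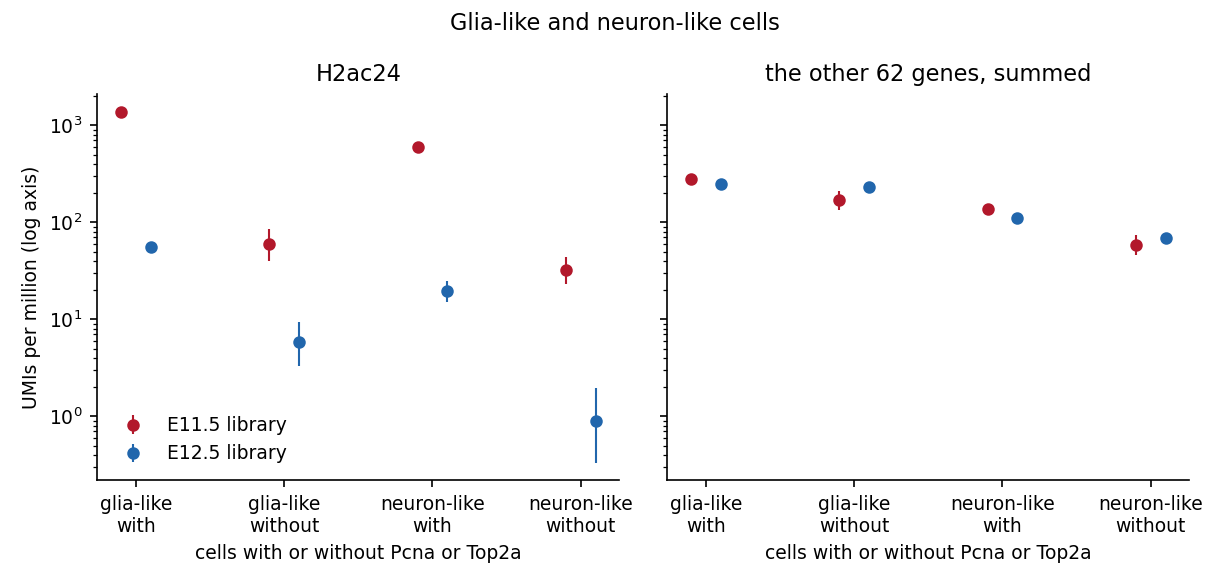
Levels of H2ac24 (left) and of the other 62 histone genes summed (right) in glia-like and neuron-like cells with or without Pcna or Top2a, in CPM on a log axis with exact 95% Poisson intervals, at E11.5 (red) and E12.5 (blue). H2ac24 spans 1374 to 32.4 at E11.5 and 55.5 to 0.905 at E12.5, while the other genes differ less between the 2 libraries in each class.

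Single clusters differed from their class. Among the neuron-like clusters of E11.5, the one of 43 cells, led by genes such as Insm1 and Dll1, all with a marker, had 1419 CPM of H2ac24, against 28.8 to 39.9 CPM in the other 3. It met 6 of the 19 neuron markers, against 10 to 19 in the other 3. At E12.5 a neuron-like cluster of 233 cells, 70.4% with a marker, also had Insm1 and Dll1 among its leading genes. It had 38.4 CPM, against 0.425 to 3.08 CPM from 1 to 4 UMIs in each of the other neuron-like clusters. It met 4 of the 19 neuron markers, against 7 to 19 in those others. Among the glia-like clusters of E11.5, one of 87 cells with a median of only 2840 UMIs, led by the embryonic globin gene Hbb-y, had 34.2 CPM of H2ac24 although 72.4% of its cells had a marker. The other 4 glia-like clusters stood at 1197 to 1461 CPM. The other 62 genes were closer, at 198 CPM (150 to 256) in this cluster and 247 to 295 CPM in the others. Pericyte-like cells had 383 CPM of H2ac24 at E11.5 (333 to 438) and 12.8 CPM at E12.5 (3.48 to 32.7, from 4 UMIs). Mesenchymal-like and myeloid-like cells of E12.5 had 34.6 CPM (24.2 to 47.9) and 20.2 CPM (7.42 to 44.0, from 6 UMIs). The counts of 4 and 6 UMIs are near the floor of 3.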

How the data were processed

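The authors deposited raw UMI counts per gene and cell barcode, made with Cell Ranger 7.0 on mm39 per the labels (7.0.1 in the file headers), with 1 file set per stage. Whether intronic reads were counted, and how reads matching several copies were assigned, is not given in the sources used here. Barcodes over 10% mitochondrial UMIs, under 2000 (E11.5) or 1000 (E12.5) UMIs, or with a Scrublet doublet score above 0.2 were removed, leaving 833 of 1431 and 3496 of 3762, with 9541971 and 22456846 UMIs. Cells were clustered per library in scanpy 1.11.5 (3000 variable genes, 30 components, Leiden resolution 1) without the histone, replication and mitosis genes. Clusters were named from marker lists, and no cluster was endothelial-like, erythroid-like or melanoblast-like.

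Counts were summed per class. Genes with 20 or more UMIs over both classes were compared, and 2-fold was the threshold. A class at 0 was set to the floor of 3 UMIs for a bound, which leaves out the counting error of the other class. Intervals were computed with scipy 1.17.1, and the steps were tested on simulated data. Thinning drew 2000 UMIs per cell. Sequences came from GRCm39 with GENCODE M39 and from RefSeq promoters.

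The 20 genes with the most UMIs were named, with the 3 highest and 3 lowest ratios of each comparison, also for the replacement histone, histone mRNA processing and supply, and DNA replication lists. The genes, lists and alternatives were chosen with earlier results of these data known, and the alternatives that leave out the low-depth glia-like cluster or the neuron-like cluster with the highest H2ac24 level after these data were seen. No sample column was left unused (0).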

Additional observations from a re-analysis of the deposited data

Results flagged for a closer look

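Barcodes removed by the cell filters, which no comparison uses, also held histone UMIs. In the 598 removed at E11.5, H2ac24 had 104 of 745624 UMIs (139 CPM, 114 to 169) and the other 62 genes also had 104 (139 CPM), against 960 and 219 CPM in the kept cells. Of these 104 H2ac24 UMIs, 61 lay in 7 barcodes removed by doublet score, where erythroid markers were at 91094 CPM, and the other 591 barcodes were at 70.6 CPM (51.1 to 95.1). In the 266 removed at E12.5, H2ac24 had 33 of 1003397 UMIs (32.9 CPM, 22.6 to 46.2) and the other genes 188 (187 CPM, 162 to 216), against 25.7 and 170 CPM in the kept cells. Of these 33 UMIs, 31 lay in 67 barcodes removed by doublet score, and the other 199 barcodes held 2. The values over all removed barcodes lie above the floor of 3 UMIs set for a count of 0.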

How the results depend on the processing

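No log2 ratio among the 140 recomputed values changed direction, while counts of genes and shares of cells have no direction to change. Of the 140, 93 stayed within counting error or 1.5 times, and 47 moved further. All are log2 ratios of the summed histone genes unless stated. Without H2ac24, cells with over without a marker gave 1.18 and 0.82 at E11.5 and E12.5 (from 3.25 and 1.07), 0.72 and 0.11 in glia-like cells (from 2.86 and 0.36), glia-like over neuron-like cells 1.40 and 1.55 (from 1.79 and 1.66), Pcna only over Top2a only -0.75 at E11.5 (from -2.16), and E12.5 over E11.5 -0.36 in all cells (from -2.59) and -0.14 in glia-like cells with a marker (from -2.43). In thinned cells the values were 1.73 with a marker at E11.5, 1.22 in glia-like cells, 1.66 for glia-like over neuron-like, -0.58 and -0.44 for Pcna only over Top2a only (the latter from -1.07), and -2.29 and -2.34 between the libraries. Means over cells gave 2.98 and 0.92 with a marker, 1.60 for glia-like over neuron-like at E11.5, -1.85 for Pcna only over Top2a only at E11.5, and -2.30 and -2.21 between the libraries. Dividing by Mcm5 or Mki67 gave 2.07 and 0.98, and 1.13 and 0.18 in glia-like cells. Requiring 2 marker UMIs gave 1.40 and, in glia-like cells, 0.61 at E12.5. For glia-like over neuron-like cells, 15 components gave 1.13 and keeping histone and cycle genes in the clustering 1.09 at E11.5, and a minimum of 2000 UMIs gave 1.92 and Leiden resolution 2 gave 1.83 at E12.5. Between the libraries, every barcode gave -2.50, leaving out mitochondrial and ribosomal protein genes -2.64, and leaving out H1 genes -2.71 and, in glia-like cells with a marker, -2.57. With a minimum of 50 UMIs, 9 and 13 genes were at least 2-fold higher with a marker (from 20 and 22) and 10 and 14 in glia-like over neuron-like cells (from 20 and 23), because fewer genes were read. The share of thinned marked cells with a histone UMI was 87.3% and 64.1% without thinning, 50.7% and 14.3% for 2 or more UMIs, and 42.7% at E12.5 (from 39%) in a second draw. Apart from these constructions the cause was not tested. Leaving out the low-depth glia-like cluster, added after seeing the data, moved none of the 9 values recomputed. Leaving out the neuron-like cluster with the highest H2ac24 level, also added after seeing the data, gave 4.05 and 2.23 for glia-like over neuron-like cells and moved none of the other 6 values. No paired analysis was possible because each stage is 1 library. Depth limits all genes with few UMIs, and 23 of 63 could not be compared between the libraries.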
